A study of Mus musculus with 58 samples.

Results

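The Fc gamma receptor genes comprised 5 genes, chosen by name: *Fcgr1*, *Fcgr3* and *Fcgr4*, which encode the ligand-binding chains of the activating receptors for immunoglobulin G (IgG), *Fcgr2b*, which encodes the inhibitory receptor, and *Fcer1g*, which encodes the common gamma chain. All 5 were found by Ensembl identifier among the 47643 genes of the 34 microglia libraries, and all 5 passed the filter on low counts in each of the 4 comparisons. Fc gamma receptors bind the constant part of IgG on opsonised particles and immune complexes. Clustered activating receptors signal through the tyrosine motifs (ITAM) of the common gamma chain, which Src family kinases phosphorylate and which then recruit the kinase Syk, whereas the inhibitory receptor carries its own motif that recruits the phosphatase encoded by *Inpp5d*. In microglia the activating receptors are known for the uptake of IgG-coated particles.

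The study asked how microglia respond to tau and to the nuclear factor kappa B (NF-κB) kinase IKKβ, encoded by *Ikbkb*. QuantSeq 3′ RNA sequencing, which counts the 3′ ends of transcripts, was performed on 8 groups. Primary microglia of wild-type mice, shaken off neonatal mixed glia, received full-length tau fibrils at 2 µg/ml for 24 h (4 libraries) or vehicle (4 libraries). Adult microglia were collected with CD11b magnetic beads from perfused brains of male PS19 mice, which carry a human P301S tau transgene (4 libraries), and of male non-transgenic (NTG) mice (4 libraries). All PS19 mice and those of NTG replicates 3 and 4 were 10.98 months old, and those of NTG replicates 1 and 2 were 11.18 months old. Primary microglia of 4 genotypes were all exposed to 4-hydroxytamoxifen in mixed culture. Ikbkb-/- microglia (Cx3cr1CreERT2/+;IkbkbF/F, 4 libraries) were set against Ikbkb+/+ microglia (Cx3cr1+/+;IkbkbF/F, 4 libraries), and IkbkbCA microglia, in which Cre switches on a constitutively active IKKβ transgene (Cx3cr1CreERT2/+;IkbkbCAF/F, 5 libraries), were set against IkbkbWT microglia (Cx3cr1+/+;IkbkbCAF/F, 5 libraries). Cre was driven by *Cx3cr1*, so both Cre-carrying genotypes also had a single intact *Cx3cr1* allele, and the effect of Cre or of that allele cannot be told apart from that of *Ikbkb*. The labels do not say which libraries came from separate animals or cultures, so p-values measure the spread between these libraries, which may be technical. Values are CPM, the count of a gene relative to the total of its library, with TMM scaling between the libraries of a comparison. Cell type markers and their sums are the exception, being on a common TMM scale over the 34 libraries. Differentially expressed genes (DEGs) had a false discovery rate (FDR) under 0.05 in edgeR's quasi-likelihood test over all genes.

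Libraries held 1672052 to 8349128 counts in genes. *Ikbkb* was 22.9 ± 3.03 CPM in Ikbkb-/- and 52.2 ± 4.25 CPM in Ikbkb+/+ microglia (SD, n = 4 each, FDR = 6.3e-07), and 52.5 ± 6.36 and 46.9 ± 6.75 CPM in IkbkbCA and IkbkbWT microglia (n = 5 each, FDR = 0.405), where transgene reads need not fall on the annotated gene. *Csf1r*, which encodes the receptor that microglia need for survival, was at 470 to 7784 CPM in every library, but of the homeostatic markers *P2ry12* was at 3.74 to 9.24 CPM and *Siglech* at most at 1.497 CPM in the tau-treated and vehicle cultures, against 4145 to 5389 CPM of *P2ry12* in NTG libraries. Libraries stood apart: the oligodendrocyte gene *Mbp* reached 1910 CPM in IkbkbWT replicate 3 and 719 CPM in IkbkbCA replicate 3, and *Xist*, transcribed from the inactive X chromosome, was at 161 CPM in PS19 replicate 1 against at most 29.1 CPM in the other 7 adult libraries, all labelled male. The genotype groups differed in these transcripts as well, with *Xist* at 5.69 to 10.7 CPM in Ikbkb-/- and 248 to 399 CPM in Ikbkb+/+ libraries, and at 1.73 to 2.76 CPM in IkbkbWT replicates 1 to 3 and 473 to 494 CPM in replicates 4 and 5.

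4 of the genes lie on chromosome 1 within 275749 bases (GRCm38, GENCODE M21): *Fcgr2b* (ENSMUSG00000026656, chr1:170958617-170976547, minus strand), *Fcgr4* (ENSMUSG00000059089, chr1:171018920-171029761, plus strand), *Fcgr3* (ENSMUSG00000059498, chr1:171051174-171064935, minus strand) and *Fcer1g* (ENSMUSG00000058715, chr1:171229572-171234365, minus strand). *Fcgr1* (ENSMUSG00000015947) lies on chr3:96282909-96293969, minus strand. All are protein-coding. An antisense gene, *Gm38204*, overlaps exons of *Fcgr2b* and had at most 1 count in any library. *Fcgr2b* and *Fcgr3* share sequence over part of their length, with reads there uncertain: 12.8% of the 50-base words of the longest *Fcgr3* transcript also occur in that of *Fcgr2b*. None of the 50-base words in the last 500 bases of the longest transcript of any member, where QuantSeq reads start, occurred in a transcript of another gene.

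The promoters of the 3 activating receptor genes are shown because these genes moved in different directions in the comparisons that follow. Each run is the 250 bases before the RefSeq start (GRCm38.p6), read 5′ to 3′ along the gene, with matches to 4 motifs in capitals. *Fcgr1* is chr3:96293970-96294219, minus strand, *Fcgr4* is chr1:171018676-171018925, plus strand, and *Fcgr3* is chr1:171059404-171059653, minus strand.
Fcgr1: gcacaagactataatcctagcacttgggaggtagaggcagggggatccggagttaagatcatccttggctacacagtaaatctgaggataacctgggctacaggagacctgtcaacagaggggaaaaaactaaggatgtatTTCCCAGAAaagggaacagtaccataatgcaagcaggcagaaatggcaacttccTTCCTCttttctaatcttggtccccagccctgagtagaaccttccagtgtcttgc
Fcgr4: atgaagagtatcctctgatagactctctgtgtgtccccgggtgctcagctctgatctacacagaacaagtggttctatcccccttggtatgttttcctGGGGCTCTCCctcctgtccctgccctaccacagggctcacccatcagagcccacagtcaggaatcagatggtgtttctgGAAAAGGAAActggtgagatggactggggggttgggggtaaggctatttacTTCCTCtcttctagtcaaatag
Fcgr3: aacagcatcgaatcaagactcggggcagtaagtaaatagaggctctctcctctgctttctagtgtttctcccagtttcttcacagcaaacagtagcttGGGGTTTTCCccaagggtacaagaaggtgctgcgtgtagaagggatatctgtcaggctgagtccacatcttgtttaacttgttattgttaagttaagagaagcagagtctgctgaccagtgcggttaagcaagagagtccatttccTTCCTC
The motifs, searched on both strands, were the GAS element (TTCNNNGAA), the paired interferon regulatory factor half-sites of an ISRE (GAAA, any 2 bases, GAAA), the NF-κB consensus, and the PU box of the myeloid factor PU.1 (GAGGAA). The *Fcgr1* window held a GAS match 109 bases before the start, as did 7.18% of the windows of 27025 genes, and no ISRE or NF-κB match. The *Fcgr4* window held an ISRE match 73 bases and an NF-κB match 152 bases before the start, found in 3.04% and 7.01% of windows. In *Fcgr3* an NF-κB match began 152 bases before the start. RefSeq has a second *Fcgr3* start close by (window chr1:171059395-171059644), and the match began 161 bases before that start. The window lies inside the GENCODE span of *Fcgr3*, whose longer transcripts start further upstream. All 3 windows held a PU box on the opposite strand, as did 23.1% of windows on either strand, whereas the *Fcgr2b* and *Fcer1g* windows held none of the 4 motifs. No motif overlapped another in the 3 windows printed. A match describes these letters only.

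Tau fibrils changed 4 of the 5 genes, 3 of them upward. In this comparison 29.9% of 10408 genes tested were DEGs (14.5% higher, 15.4% lower). *Fcgr1*, the high-affinity receptor, rose from 20.4, 26.2, 34.5 and 48.5 CPM in the vehicle libraries to 251, 275, 329 and 314 CPM in the tau-treated libraries. The groups were far from overlapping, with means of 32.4 ± 12.2 and 292 ± 35.7 CPM (SD, n = 4 each), and the log2 fold change was 3.19 (SE 0.18, FDR = 8.8e-14). *Fcgr4*, the mouse receptor of intermediate affinity, rose from 8.16, 3.46, 12.3 and 8.73 CPM to 37.8, 25.3, 36.5 and 35.2 CPM, a log2 fold change of 2.15 (SE 0.29, FDR = 2.2e-06). It was the least abundant member, resting on 14 to 26 counts in each vehicle library. *Fcer1g* rose from 391, 408, 386 and 428 CPM to 1815, 1819, 2119 and 1599 CPM, a log2 fold change of 2.19 (SE 0.13, FDR = 1.4e-13).

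*Fcgr3*, a low-affinity activating receptor, moved the other way. It was at 252, 451, 288 and 389 CPM in the vehicle libraries and at 172, 185, 232 and 185 CPM in the tau-treated libraries, so each tau-treated library lay below each vehicle library. The change was -0.84 on the log2 scale (SE 0.16, FDR = 1.6e-04). The inhibitory *Fcgr2b* was at 42.6, 48.6, 69.5 and 72.5 CPM with vehicle and at 48.1, 26.2, 43.3 and 47.5 CPM with tau. Its groups overlapped and its log2 fold change of -0.50 (SE 0.20) did not pass the threshold (FDR = 0.066), although it did under total-count scaling (-0.65, FDR = 0.017) and without vehicle replicate 1 (-0.61, FDR = 0.031) or replicate 2 (-0.59, FDR = 0.048). The 4 called members kept their direction and their call in all 7 other settings and all 8 fits that left out a library. Groups did not overlap for 28.3% of the genes tested (14.1% higher, 14.2% lower).

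Marker genes of cell types moved with the treatment too. Of 10 microglia markers, 9 were tested and 6 were higher with tau (median log2 fold change 1.22), and their summed level was 10798 to 12293 CPM in tau-treated and 4577 to 5913 CPM in vehicle libraries. Astrocyte markers summed to 351 to 415 against 645 to 691 CPM, with 4 of 6 lower, and neuron markers to 36.8 to 50.2 against 80.8 to 92.2 CPM, with 4 of 6 lower. In bulk cultures a larger share of a cell type and more RNA per cell cannot be told apart, and the part of this shift in the receptor results was not tested. Monocyte, granulocyte, natural killer (NK) and mast cell markers were near 0. In these 8 libraries monocyte markers summed to at most 2.17 CPM and granulocyte markers to 7.37 CPM. NK cell markers summed to at most 0.501 CPM and mast cell markers to 1.68 CPM. Within each group 5 of 6 NK cell markers were at 0 in every library, but not the same 5 in both groups. Border-associated macrophage markers, from cells that carry Fc gamma receptors themselves, summed to 111 to 118 CPM with tau and 59.9 to 92.4 CPM with vehicle, without overlap, and 1 of the 2 tested was higher. Their part in the receptor results was not tested.

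**Figure D1:**
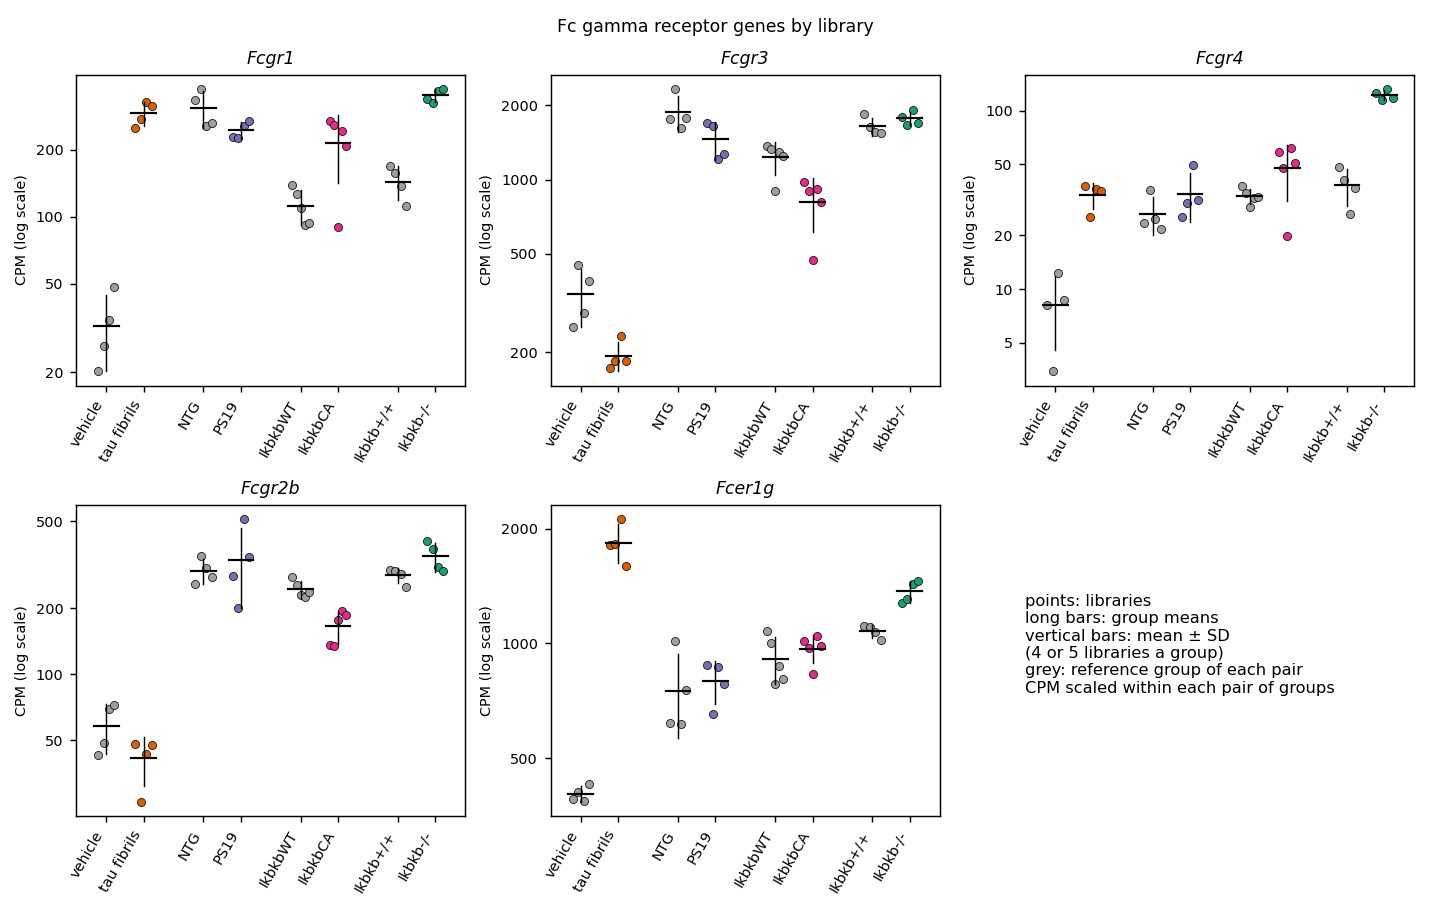
CPM of each gene (log axis) in the 34 libraries by group, with group means and mean ± SD. *Fcgr1*, *Fcgr4* and *Fcer1g* lay higher in every tau-treated than in every vehicle library and *Fcgr3* lower. A single IkbkbCA library (replicate 3) lay below the rest of its group in *Fcgr1*, *Fcgr3*, *Fcgr4* and *Fcer1g*.

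In PS19 microglia none of the 5 genes differed from NTG microglia in the edgeR test, where 8 of 11323 genes (0.0707%) were DEGs and 977 had an unadjusted p under 0.05. No member had an unadjusted p under 0.05. *Fcgr1* was at 228, 225, 255 and 269 CPM in PS19 and 336, 375, 256 and 265 CPM in NTG libraries, with a log2 fold change of -0.33 (95% interval -0.73 to 0.06, FDR = 0.645). The NTG libraries at 336 and 375 CPM were those of the mice aged 11.18 months, and with age in the model the log2 fold change was -0.092 (FDR = 0.990). No PS19 mouse had that age, so this estimate rested on NTG replicates 3 and 4. Age cannot be told apart from any other difference of NTG replicates 1 and 2. *Fcgr3* was at 1696, 1644, 1213 and 1268 CPM against 1764, 2334, 1618 and 1769 CPM, a log2 fold change of -0.36 (-0.79 to 0.07, FDR = 0.644). Groups overlapped for all 5 members, while they did not for 5.77% of genes tested (3.29% higher, 2.47% lower). *Fcgr4* (0.37, -0.18 to 0.91), *Fcgr2b* (0.17, -0.39 to 0.72) and *Fcer1g* (0.08, -0.37 to 0.53) had intervals that also held 0. *Fcgr2b* was the most variable, from 200 CPM in PS19 replicate 2 to 512 CPM in replicate 3, and that range enclosed the 258 to 348 CPM of the NTG libraries. No other setting called a member in this comparison, DESeq2 and limma-voom included.

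Adult libraries also held transcripts of granulocytes, cells that carry Fc gamma receptors themselves. The 7 granulocyte markers summed to 433 to 2744 CPM in PS19 and to 1648 to 2290 CPM in NTG libraries, with *S100a8* at 163 to 1044 and 610 to 963 CPM. Monocyte markers summed to 22.9 to 81.5 and 62.5 to 94.6 CPM. No marker of either list was at 0 throughout a group, and none was a DEG. Border-associated macrophage markers summed to 361 to 830 CPM in PS19 libraries, highest in replicate 1, and to 311 to 572 CPM in NTG libraries, with 0 of 6 called. B cell markers summed to 285 to 496 and 330 to 438 CPM, most of it *Ighm* (282 to 485 and 320 to 426 CPM), and 3 of the 6 were at 0 in every library of either group. Their part in the receptor levels was not tested.

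IkbkbCA microglia had more *Fcgr1* and less *Fcgr2b* and *Fcgr3* than IkbkbWT microglia, in a comparison where 14.5% of 11697 genes were DEGs (7.31% higher, 7.16% lower). *Fcgr1* was at 139, 126, 109, 91.7 and 94.0 CPM in IkbkbWT and at 268, 258, 90.3, 242 and 209 CPM in IkbkbCA libraries. All IkbkbCA libraries except replicate 3 lay above every IkbkbWT library, and replicate 3 lay below all of them. The log2 fold change was 0.93 (SE 0.25, FDR = 0.026). Without replicate 3 of IkbkbCA it was 1.15 (FDR = 3.4e-04), but without any of IkbkbWT replicates 3, 4 and 5 or IkbkbCA replicates 1, 2 and 4 the FDR was 0.053 to 0.068, and in limma-voom it was 0.052.

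The inhibitory *Fcgr2b* was at 278, 256, 230, 225 and 238 CPM in IkbkbWT and at 137, 135, 177, 194 and 186 CPM in IkbkbCA libraries, without overlap (12.7% of genes tested did not overlap, 6.38% higher and 6.34% lower), and changed by -0.56 on the log2 scale (SE 0.12, FDR = 0.0068). The call held in all 10 fits that left out a library and 11 of 12 other settings, the exception being a fit of replicates 4 and 5 of both groups alone. *Fcgr3* was at 1371, 1333, 901, 1295 and 1249 CPM in IkbkbWT and at 975, 898, 474, 915 and 812 CPM in IkbkbCA libraries. Replicate 3 of IkbkbWT lay among the IkbkbCA libraries. Its log2 fold change of -0.59 (SE 0.18) was at the threshold (FDR = 0.049), and the FDR was 0.062 to 0.123 without any of IkbkbWT replicates 1, 2, 4 and 5 or IkbkbCA replicates 1, 2, 4 and 5, 0.0598 with RLE normalization, 0.0678 when no gene was filtered out and 0.0754 when *Ddx3y* entered the model. *Fcgr4* was at 37.6, 34.6, 28.9, 32.4 and 32.7 CPM against 58.4, 47.6, 19.9, 61.7 and 50.8 CPM and was not a DEG (0.52, SE 0.24, FDR = 0.178). Without IkbkbCA replicate 3 it was called (0.74, FDR = 0.0010). *Fcer1g* had means of 909 ± 127 and 968 ± 81.5 CPM (n = 5 each) and a log2 fold change of 0.09 (95% interval -0.14 to 0.32).

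Replicates 4 and 5 of both groups stood apart from the others in neuron markers, which summed to 52.0 to 68.3 CPM against 3.81 to 7.26 CPM in replicates 1 to 3, and in fibroblast markers (16.6 to 26.8 against 0.382 to 2.80 CPM). With this split in the model, also chosen after seeing the data, the calls of all 5 members were those given above: *Fcgr1* was 0.94 (FDR = 0.023), *Fcgr2b* -0.57 (FDR = 0.0054) and *Fcgr3* -0.59 (FDR = 0.044). Within the 6 libraries with few neuron transcripts, *Fcgr1* was 0.73 (FDR = 0.355), *Fcgr2b* -0.76 (FDR = 0.028), *Fcgr3* -0.61 (FDR = 0.310), *Fcgr4* 0.32 (FDR = 0.704) and *Fcer1g* -0.019 (FDR = 0.969). Within the other 4 libraries, only replicates 4 and 5 of each group, *Fcgr1* was 1.33 (FDR = 8.6e-12), *Fcgr2b* -0.24 (FDR = 0.108), *Fcgr3* -0.51 (FDR = 3.0e-04), *Fcgr4* 0.85 (FDR = 1.4e-05) and *Fcer1g* 0.32 (FDR = 0.027). *Fcgr1*, *Fcgr2b*, *Fcgr3* and *Fcgr4* thus kept their direction in both sets, and whether the effects differed between the sets was not tested. In the fit of 4 libraries 1303 genes were higher and 1007 lower of 12502 tested, and in that of 6 it was 374 and 199 of 11426. The FDR values in the fit of 4 rest on the spread between those few libraries, which may be technical. The Y-linked gene *Ddx3y* was at 145 to 173 CPM in IkbkbWT and 48.9 to 59.6 CPM in IkbkbCA replicates 1 to 3. In replicates 4 and 5 it was at 1.16 to 2.08 CPM against 68.6 to 85.8 CPM. Within each set genotype and the amount of male RNA therefore cannot be told apart.

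Leaving out replicate 3 of both groups, chosen after seeing the oligodendrocyte transcripts, gave 4 called members: *Fcgr1* (1.14, FDR = 0.0010), *Fcgr4* (0.70, FDR = 0.0020), *Fcgr3* (-0.52, FDR = 0.0024) and *Fcgr2b* (-0.59, FDR = 0.019). In that fit 895 genes were higher and 769 lower of 11927 tested. IkbkbCA replicate 3 also had the lowest summed microglia markers of its group, 13698 CPM against 17173 to 22105 CPM in the other 4, and the highest granulocyte markers, 85.7 against 16.9 to 32.8 CPM. Across the comparison the granulocyte markers summed to 6.63 to 12.0 CPM in IkbkbWT libraries, and border-associated macrophage markers to 1374 to 1893 CPM in IkbkbWT and 483 to 1028 CPM in IkbkbCA libraries, with 4 of 5 tested lower. Of 10 microglia markers, 4 were higher and 2 lower in IkbkbCA microglia, and their sum was 10951 to 16340 CPM in IkbkbWT libraries. Their part in the receptor results was not tested.

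Ikbkb-/- microglia had more *Fcgr4*, *Fcgr1* and *Fcer1g* than Ikbkb+/+ microglia, where 14.6% of 11242 genes were DEGs (7.64% higher, 6.96% lower). *Fcgr4* was at 48.1, 41.1, 26.5 and 36.8 CPM in Ikbkb+/+ and at 126, 115, 133 and 118 CPM in Ikbkb-/- libraries, a log2 fold change of 1.72 (SE 0.13, FDR = 2.9e-08). *Fcgr1* was at 168, 157, 137 and 112 CPM against 337, 325, 368 and 374 CPM, a log2 fold change of 1.30 (SE 0.11, FDR = 8.1e-08). *Fcer1g* was at 1109, 1103, 1073 and 1019 CPM against 1275, 1307, 1428 and 1460 CPM, a smaller log2 fold change of 0.35 (SE 0.08, FDR = 0.0048). Groups did not overlap for these 3 genes, nor for 18.1% of all genes tested (9.44% higher, 8.67% lower). The *Fcer1g* call was lost in a fit of all 34 libraries (0.34, FDR = 0.198). *Fcgr2b* was at 251 to 300 CPM against 297 to 407 CPM and missed the threshold (0.29, SE 0.10, FDR = 0.064), except without Ikbkb-/- replicate 4 (0.35, FDR = 0.033) or without a filter on low counts (0.27, FDR = 0.043). *Fcgr3*, at 1642 ± 138 and 1769 ± 115 CPM (n = 4 each), had a log2 fold change of 0.11 (95% interval -0.07 to 0.29).

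The Y-linked gene *Ddx3y* was at 156 to 178 CPM in Ikbkb-/- and at 34.9 to 70.8 CPM in Ikbkb+/+ libraries, so the groups differed in male RNA as well as genotype. With log2 CPM of *Ddx3y* in the model no member was called: *Fcgr4* was 0.85 (FDR = 0.258), *Fcgr1* 0.54 (FDR = 0.359) and *Fcer1g* 0.23 (FDR = 0.704), and DEGs fell from 859 higher and 782 lower to 114 and 176. Since *Ddx3y* separated the groups without overlap, genotype and male share cannot be told apart here. Border-associated macrophage markers were lower in Ikbkb-/- microglia for 5 of 5 tested (417 to 732 against 1487 to 1820 CPM summed), and granulocyte markers summed to 8.08 to 13.03 against 8.22 to 410 CPM. The Ikbkb+/+ libraries were graded. Over replicates 1 to 4 granulocyte markers summed to 410, 94.8, 39.4 and 8.22 CPM. *P2ry12* was at 481, 408, 280 and 112 CPM. *Fcgr1*, *Fcgr2b*, *Fcgr3* and *Fcer1g* fell in that order too, and *Fcgr4* did not. Oligodendrocyte markers were higher for 5 of 6 (440 to 524 against 226 to 328 CPM), and of 10 microglia markers 2 were higher and 4 lower. Their part in the receptor results was not tested.

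**Figure D2:**
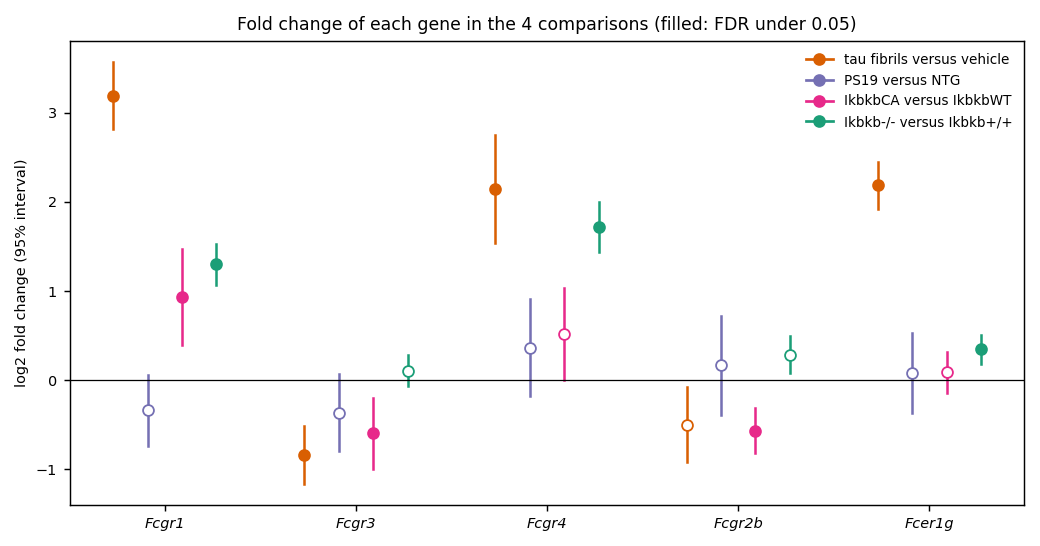
Log2 fold change of each gene in the 4 comparisons with 95% intervals. Filled points passed FDR under 0.05: *Fcgr1* was higher with tau (3.19), IkbkbCA (0.93) and Ikbkb-/- (1.30), while *Fcgr3* was lower with tau (-0.84) and IkbkbCA (-0.59).

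Differences between these effects were tested in fits with a mean for each group. The IkbkbCA and Ikbkb-/- effects were compared first, where 3.12% of 12352 genes differed (2.23% higher, 0.899% lower). *Fcgr2b* differed by -0.84 (SE 0.17, FDR = 0.0071), being lower in IkbkbCA and, by its estimate, higher in Ikbkb-/- microglia. It was past the threshold in all 18 fits that left out a library, but not in a single fit of all 34 libraries (FDR = 0.142). *Fcgr4* differed by -1.17 (SE 0.31, FDR = 0.045), and here the FDR was over 0.05 in 13 of the 18 fits that left out a library (0.057 to 0.126), namely without IkbkbWT replicates 1, 2, 4 or 5, IkbkbCA replicates 2 or 5, Ikbkb+/+ replicates 2, 3 or 4, or any Ikbkb-/- replicate. *Fcgr1* rose in both genotypes and its 2 effects did not differ beyond their error (-0.35, 95% interval -1.0004 to 0.31, FDR = 0.650). The interval for *Fcer1g* also held 0 (-0.24, -0.53 to 0.05), and *Fcgr3* missed the threshold (-0.69, -1.15 to -0.22, FDR = 0.113) except without IkbkbWT replicate 3 (-0.78, FDR = 0.043) or without replicate 3 of both IkbkbCA and IkbkbWT (-0.64, FDR = 0.0024).

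The tau effect exceeded the IkbkbCA effect for *Fcgr1* by 2.18 (SE 0.36, FDR = 5.6e-04), for *Fcer1g* by 2.02 (SE 0.16, FDR = 5.0e-08) and for *Fcgr4* by 1.55 (SE 0.42, FDR = 0.024), in a test where 9.42% of 12841 genes differed (5.86% higher, 3.55% lower). Without vehicle replicate 2 the *Fcgr4* difference was 1.19 (FDR = 0.074). For *Fcgr3* (-0.32, 95% interval -0.89 to 0.25) and *Fcgr2b* (-0.01, -0.51 to 0.49) no difference was detectable. The tau effect likewise exceeded the PS19 effect for *Fcgr1* (3.43, SE 0.29, FDR = 6.5e-08), *Fcer1g* (2.02, SE 0.24, FDR = 5.5e-06) and *Fcgr4* (1.67, SE 0.43, FDR = 0.015), where 8.07% of 11852 genes differed (4.42% higher, 3.65% lower). These 2 tests share the tau and vehicle libraries, and the experiments were prepared apart.

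Within a library the receptors can be set against each other without scaling between libraries, and 3′ counting makes counts independent of transcript length. *Fcgr3* supplied most of the activating receptor counts (the sum of *Fcgr1*, *Fcgr3* and *Fcgr4*) in every group but the tau-treated one. In vehicle cultures *Fcgr1* made up 8.48 ± 2.56% and *Fcgr3* 89.2 ± 3.47% (SD, n = 4), and in tau-treated cultures 56.2 ± 1.97% and 37.2 ± 1.87%. *Fcgr1* thus overtook *Fcgr3* in each of the 4 tau-treated libraries, with 1.42 to 1.70 *Fcgr1* counts for each *Fcgr3* count, against 0.0581 to 0.125 with vehicle. The *Fcgr1* share was 19.4 ± 2.32% in IkbkbCA and 8.24 ± 1.64% in IkbkbWT libraries (n = 5). It did not overlap between these groups: IkbkbCA replicate 3, the lowest of its group, had 15.4%, and the IkbkbWT libraries had at most 10.5%. In Ikbkb-/- and Ikbkb+/+ libraries the *Fcgr1* share was 15.7 ± 0.99% and 7.85 ± 0.87%, and the *Fcgr4* share 5.47 ± 0.08% and 2.07 ± 0.36% (n = 4). In PS19 (14.4 ± 2.99%) and NTG (13.96 ± 1.28%) libraries the *Fcgr1* shares overlapped.

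Activating counts per *Fcgr2b* count were 13.3 ± 3.90 in tau-treated and 6.86 ± 2.16 in vehicle libraries, with 9.60 to 18.5 against 4.82 to 9.90 and thus overlapping ranges. They were 6.76 ± 2.53 in IkbkbCA and 5.61 ± 0.66 in IkbkbWT, 6.61 ± 1.17 in Ikbkb-/- and 6.45 ± 0.41 in Ikbkb+/+, and 6.00 ± 2.85 in PS19 and 7.43 ± 0.87 in NTG libraries, all with overlapping ranges. *Fcer1g* counts per activating receptor count rose from 1.09 ± 0.24 with vehicle to 3.56 ± 0.41 with tau without overlap. The ratio was 0.956 ± 0.27 in IkbkbCA and 0.665 ± 0.07 in IkbkbWT libraries, where the lowest IkbkbCA library (0.777) lay just above the highest IkbkbWT library (0.754), and 0.611 ± 0.04 and 0.593 ± 0.04 in Ikbkb-/- and Ikbkb+/+ libraries. In PS19 it was 0.466 ± 0.096 (0.344 to 0.572) and in NTG libraries 0.338 ± 0.037 (0.291 to 0.368), with overlapping ranges. These ratios are descriptions with no test.

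**Figure D3:**
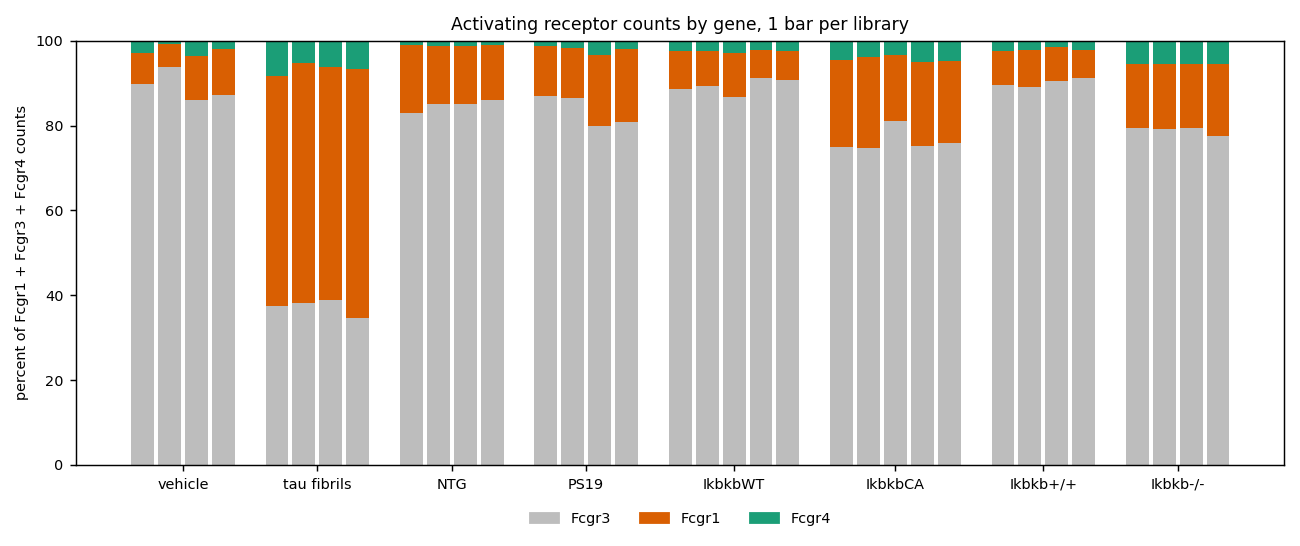
Share of *Fcgr1*, *Fcgr3* and *Fcgr4* in their summed counts (percent), with a bar for each of the 34 libraries. *Fcgr1* took 54.4 to 58.8% in tau-treated libraries and 5.45 to 10.9% in vehicle libraries.

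On a common scale over the 34 libraries, levels could be ordered across the 8 groups, as a description since the experiments were prepared apart. *Fcgr1* was highest in Ikbkb-/- (344 ± 25.6 CPM), followed by NTG (338 ± 61.0), PS19 (275 ± 24.9), tau-treated (272 ± 33.5), IkbkbCA (211 ± 71.6), Ikbkb+/+ (141 ± 22.1), IkbkbWT (109 ± 22.1) and vehicle (29.8 ± 11.2). Each neighbour in that order overlapped except IkbkbWT and vehicle. *Fcgr3* ran from 2052 ± 333 CPM in NTG to 317 ± 84.6 in vehicle and 180.0 ± 24.6 in tau-treated microglia, with gaps below Ikbkb+/+, IkbkbCA and vehicle. *Fcgr4* was at 120.5 ± 7.795 CPM in Ikbkb-/- and at 29.1 to 47.2 CPM in 6 groups whose neighbours overlapped, with vehicle apart at 7.49 ± 3.32 CPM. *Fcgr2b* ran from 375 ± 150 CPM in PS19 to 53.5 ± 13.7 in vehicle and 38.4 ± 9.54 CPM in tau-treated microglia. *Fcer1g* was highest in tau-treated microglia (1710 ± 200 CPM), then in Ikbkb-/- (1342 ± 98.5) and Ikbkb+/+ microglia (1058 ± 24.5), and lowest with vehicle (370.3 ± 18.1). Tau-treated microglia did not overlap Ikbkb-/-, Ikbkb-/- did not overlap Ikbkb+/+, and vehicle did not overlap its neighbour NTG. Vehicle cultures were therefore lowest for 3 members and next to lowest for the other 2.

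The genes most like each member were taken from 9367 genes tested in all comparisons, by Pearson's r of log2 CPM over the 34 libraries, each as the deviation from the mean of its experiment. These libraries share the treatments, so r describes movement pooled over 4 experiments and carries no test. Experiments with larger changes weigh more in it, so a high r need not mean joint movement in each experiment. *Fcgr1* was closest to *Psmb8* (r = 0.95) and *Psmb10* (0.95), which encode immunoproteasome subunits, and to *Lgals9* (0.95), which encodes galectin-9. *Fcgr4* was closest to *Rnf213*, a ubiquitin ligase gene (0.90), *Dhx58*, which encodes an RNA helicase of the RIG-I family (0.89), and *Slfn5* (0.87). *Fcer1g* was closest to *Ms4a6d* (0.96), *Arhgdib* (0.96) and *Lst1* (0.94). On the log2 scale these changed by 2.44, 2.27 and 3.53 with tau, and by 0.46, 0.03 and 0.23 in Ikbkb-/- microglia. *Fcgr3* was closest to the G protein-coupled receptor gene *Gpr34* (0.86), the peroxisomal transporter gene *Abcd2* (0.85) and *Rcbtb2* (0.78), and *Fcgr2b* less closely to *Hadhb* (0.76), *Klhl9* (0.73) and *Zfp715* (0.72). *Gpr34* fell with tau by 1.54 on the log2 scale and *Abcd2* by 0.75. Among the members, *Fcgr1* moved with *Fcer1g* (0.90) and *Fcgr4* (0.87), and *Fcgr3* with none of these (-0.38 with *Fcgr1* and -0.45 with *Fcer1g*).

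Tau fibrils also changed the genes through which the receptors signal, described by counts over lists of genes. Of 23 tested genes of activating signalling (26 listed), 12 rose and 2 fell (52.2% and 8.70%, median log2 fold change 0.56), against 14.5% and 15.4% of all genes tested (median -0.01). *Pik3ap1*, a phosphoinositide 3-kinase adaptor gene (2.67), and *Pik3r5*, a regulatory subunit gene (2.28), were among those that rose, while *Plcg1* (-0.63) and the kinase gene *Fyn* (-0.62) fell. *Syk* rose from 43.8 ± 9.65 to 91.3 ± 7.91 CPM (n = 4 each, edgeR FDR = 1.7e-05). Inhibitory signalling rose as well, 7 of 12 tested up (58.3%) and none down (median 0.62), led by the phosphatase gene *Ptpn6* (1.95) and the adaptors *Dok2* (1.48) and *Dok3* (1.42). *Inpp5d*, the phosphatase that the inhibitory receptor recruits, rose by 0.47 (edgeR FDR = 0.011). Of 26 tested phagocytic cup genes 19 rose and 3 fell (73.1% and 11.5%, median 0.66). The small GTPase gene *Rac2* (2.43), *Coro1a* (1.57) and *Myo1g* (1.402), which act on cortical actin, rose most, and *Amph* (-0.99), *Elmo1* (-0.57) and *Myo10* (-0.39) fell. Vehicle libraries held less of the microglia markers, as given above, and its part in these lists was not tested.

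In a list of other receptors and adaptors of the ITAM system, 12 of 16 tested genes rose (75%, median 1.03). The C-type lectin receptor genes *Clec4a1* (5.26), *Clec4a3* (4.21) and *Clec4e* (3.98) rose most. This list, called ITAM receptors below, was not limited to receptors that signal through an ITAM adaptor. It also held adaptor genes, the integrin genes *Itgam* and *Itgb2*, and inhibitory receptor genes such as *Pirb*. The adaptor *Tyrobp*, the counterpart of the common gamma chain for some receptors of this list, was at 850 ± 176 with vehicle and 930 ± 187 CPM with tau and was not a DEG (0.13, edgeR FDR = 0.570), beside the 4.56-fold rise of *Fcer1g*. Of 5 other Fc receptors tested, *Trim21*, a cytosolic antibody receptor gene (2.16), and *Fcgrt*, which encodes the neonatal Fc receptor (1.11), rose.

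In IkbkbCA microglia 7 of 26 activating signalling genes rose and 3 fell (26.9% and 11.5%, median 0.11), against 7.31% and 7.16% of all genes (median -0.05), with the Src family kinase genes *Fgr* (2.92, 3.04 against 0.38 CPM) and *Src* (1.45) among those higher, and *Vav3* (-1.57), *Pik3cd* (-0.73) and *Tec* (-0.62) lower. Of 12 inhibitory genes 3 fell (25%), *Cblb* (-0.75), *Ubash3b* (-0.55) and *Ptpn11* (-0.30), and none rose. *Syk* (0.13) was not a DEG. Of 27 phagocytic cup genes 4 rose, *Myo10* (1.63) most, and 2 fell (14.8% and 7.41%). The neonatal Fc receptor gene *Fcgrt* fell by 1.38 on the log2 scale and the microglial Fc receptor-like gene *Fcrls* by 1.91, while *Cd300lf* (1.43) and *Trim21* (1.00) rose. Among other ITAM receptors 6 of 17 rose and 1 fell (35.3% and 5.88%), with *Clec4e* (4.58), *Clec4d* (2.82) and *Trem1* (1.60) highest and *Clec4a3* (-0.71) lower.

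In Ikbkb-/- microglia activating signalling genes rose in 2 of 25 (*Pik3ap1* 0.87 and *Plcg2* 0.44) and fell in 3 (*Vav3* -0.88, *Pik3r5* -0.51 and *Pik3cd* -0.35). That was 8% higher and 12% lower, against 7.64% and 6.96% over all genes. *Dok2* (-0.79) was the only called gene of 12 inhibitory genes, and 3 of 27 phagocytic cup genes rose (*Myo1g* 0.59, *Myo1f* 0.35 and *Lamp2* 0.22). *Fcgrt* fell by 0.51 on the log2 scale and *Cd300lf* (0.79), *Trim21* (0.69) and *Fcrl1* (0.50) rose. *Trem1* (1.03), *Cd300ld* (0.56) and *Cd300c2* (0.29) rose and *Clec4a3* (-0.87), *Clec4n* (-0.82) and *Clec4a1* (-0.79) fell. In PS19 microglia *Clec7a*, which encodes the beta-glucan receptor dectin-1, was the only DEG of these lists, at 291 against 74.1 CPM (1.97, edgeR FDR = 0.020).

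**Figure D4:**
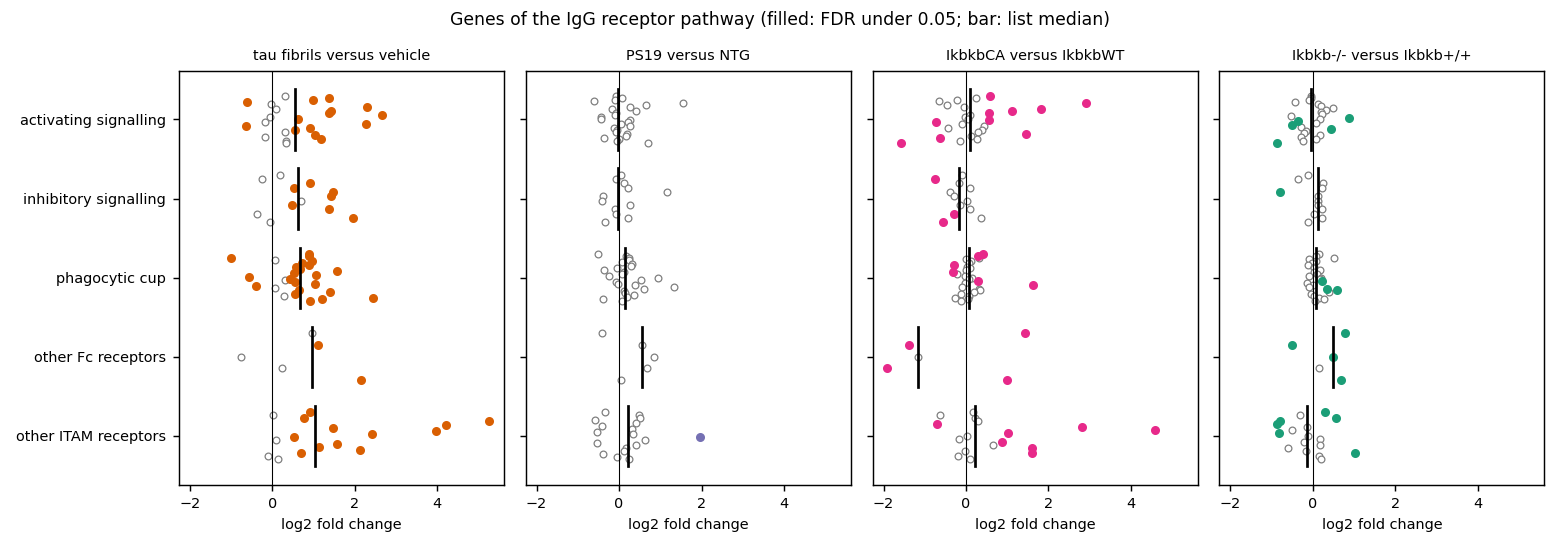
Log2 fold change of each tested gene of the 5 pathway lists in the 4 comparisons. Filled points passed FDR under 0.05 and vertical bars mark list medians, which in tau-treated microglia lay between 0.56 and 1.03.

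Genes next to the receptors were counted in the same way. Of 31 other protein-coding genes within 100 kb of a member, 14 to 18 were tested in a comparison. None rose and 2 fell with tau, *Sdhc* (-0.50), within reach of *Fcgr3*, *Fcgr4* and *Fcer1g*, and *Sv2a* (-0.67), near *Fcgr1*, 2 of 14 tested, against 15.4% of all genes lower. In IkbkbCA microglia *B4galt3* (-0.33) and *Hist2h2ac* (-1.47, at 1.48 against 4.16 CPM, a histone gene with near-identical copies whose counts are uncertain) were lower, 11.1% of 18 against 7.16% of all genes, and in Ikbkb-/- microglia *Adamts4* (1.22) and *Sv2a* (0.47) were higher and *Hist2h2ac* (-1.28) lower, 11.1% and 5.56% of 18 against 7.64% and 6.96% of all genes. None of 15 was a DEG in PS19 microglia.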

How the data were processed

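QuantSeq 3′ libraries of 34 microglia samples were analysed, and 24 cortex samples were not used here. The authors mapped the microglia reads to GRCm38 on the BlueBee platform with its QuantSeq pipeline and deposited counts per gene for each sample. Their methods name STAR for the cortex set and RSEM for the count table, and edgeR and limma for the tests. The values were whole numbers, laid out as a read counter writes them, and were treated as raw counts. Lines that name no gene (reads outside genes, ambiguous or not unique) were left out of totals. Reads outside genes were 12.4 to 38.3% and ambiguous reads 0.409 to 0.708% per library. Both are shares of the reads in genes, outside genes and ambiguous. The line for not unique held 52.5 to 56.2% of a larger total that includes it. Groups came from the sample labels, which give no replicate numbers, so replicates were numbered in accession order.

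Counts were tested in R 4.3.3 with edgeR 4.0.16 (TMM, filterByExpr with a minimum of 10 counts, glmQLFit and glmQLFTest), with Benjamini-Hochberg adjustment over all genes tested and a threshold of 0.05. Differences between effects were contrasts in a fit with a mean for each group. Alternatives were RLE and total-count scaling, DESeq2 1.42.0, limma-voom (limma 3.58.1), other filters, a fit of all 34 libraries, covariates and each library left out. Levels across groups used TMM over the 34 libraries, and log2 CPM used a prior count of 2. The scripts were tested on simulated data. Of simulated 1.5-fold changes, 10.45% (PS19 versus NTG) to 32.84% (IkbkbCA versus IkbkbWT) were called, and of 4-fold changes 96.97% to 98.48%. The simulated spread was smaller than that of the PS19 comparison, so small changes there could easily be missed. Depth limits precision: counting error alone is large for *Fcgr4* in vehicle libraries (14 to 26 counts).

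The members and gene lists were chosen with earlier results of these data known. Named genes were the members, *Ikbkb* and *Cx3cr1*, up to 3 highest and 3 lowest DEGs of each list with a mean count of at least 10, neighbours within 100 kb that were DEGs, and the 3 genes most like each member. Some genes that this rule names are not reported here. *Syk*, *Inpp5d* and *Tyrobp*, outside that rule, were named after their values were seen. Promoter sequences are RefSeq's, GRCm38.p6, matched by symbol for 5 of 5 members.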

Additional observations from a re-analysis of the deposited data

Results flagged for a closer look

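A test for a single distant value in groups of 4 or 5 libraries, which chance alone sets off in about 1 in 20 groups, marked 4 values. It was run in each of the 8 groups for the members, *Ikbkb*, *Cx3cr1*, *Ddx3y* and *Xist*. Activating counts per *Fcgr2b* count, *Fcer1g* counts per activating count and the *Fcgr1* share were tested too. Over so many groups chance alone would set off a few marks. *Fcgr3* was lowest in IkbkbWT replicate 3 at 901 CPM, and *Ikbkb* highest in IkbkbWT replicate 2 at 58.6 CPM. *Xist* was highest in PS19 replicate 1 at 161 CPM. *Fcer1g* counts per activating receptor count were highest in IkbkbCA replicate 3 at 1.42.

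Effects set against each other between experiments differed in the edgeR test for 8 values. The experiments were of unlike kinds, so a difference is no failure to agree. The IkbkbCA effect minus the Ikbkb-/- effect was -0.84 for *Fcgr2b* and -1.17 for *Fcgr4*. The tau effect minus the IkbkbCA effect was 2.18 for *Fcgr1*, 1.55 for *Fcgr4* and 2.02 for *Fcer1g*. The tau effect minus the PS19 effect was 3.43 for *Fcgr1*, 1.67 for *Fcgr4* and 2.02 for *Fcer1g*.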

How the results depend on the processing

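No paired analysis was possible because the labels carry no replicate numbers. Of the alternative values of single members, 636 kept direction and side of the threshold, 41 lost the threshold, 11 passed it and 22 changed sign, each of these 22 for a value that was not past the threshold. The cause of these changes was not tested. With each library's percentage of reads outside genes in the PS19 model, *Fcgr2b* was -0.096, *Fcer1g* -0.034, the median of other Fc receptors 0.37 and of ITAM receptors 0.011. With *Ddx3y* in the Ikbkb-/- model, *Fcgr2b* was -0.16 and *Fcgr3* -0.23, 114 genes were higher and 176 lower, 0 members were higher, and the medians of inhibitory signalling and other Fc receptors were -0.089 and 0.31. In IkbkbCA that covariate left 1 member lower, with other Fc receptors at -1.26. For the tau minus IkbkbCA effect, *Fcgr2b* was 0.0028 in limma-voom, 0.075 without a filter, 0.059 in the fit of 34 libraries and 0.091 without replicate 3 of IkbkbCA and IkbkbWT.

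Total-count scaling moved the median of all genes to -0.16 with tau and -0.11 in IkbkbCA, and the share of higher DEGs from 48.5% to 31.9% and from 50.5% to 37.6% (57.5% with RLE in IkbkbCA). With tau it gave 2 members lower and medians of 0.40 (activating), 0.46 (inhibitory), 0.51 (phagocytic cup), 0.80 (other Fc receptors) and 0.87 (ITAM receptors). It gave 193 genes lower for IkbkbCA minus Ikbkb-/-. A minimum of 10 counts in every library gave medians of 0.43, 0.65 and 0.74 with tau for activating, other Fc and ITAM receptors, and -0.19 in IkbkbCA for other Fc receptors. The fit of 34 libraries gave 773 genes lower with tau, 300 higher and 75 lower in PS19, 447 lower in IkbkbCA, 264 higher and 251 lower in Ikbkb-/-, 26 genes and 0 members lower for IkbkbCA minus Ikbkb-/-, 256 lower for tau minus IkbkbCA and 950 higher for tau minus PS19. DESeq2 called 79 genes higher and 19 lower in PS19 and 175 lower for IkbkbCA minus Ikbkb-/-. In limma-voom 4 genes were higher and the ITAM median was 0.025 in PS19, and 0 members were higher with other Fc receptors at -0.87 in IkbkbCA. Without a filter 127 genes were higher and 39 lower in PS19, and 536 genes and 1 member lower in IkbkbCA. Age as a covariate left 0 genes higher in PS19, with other Fc receptors at 0.15. RLE left 1 member lower in IkbkbCA. Without both replicates 3 there were 2 members higher and other Fc receptors were at -0.97. In IkbkbCA, with the set of libraries with neuron markers in the model, other Fc receptors were at -1.0009. Within the libraries with few neuron transcripts 374 genes were higher and 199 lower (65.3% higher), 0 members higher and 1 lower, *Fcer1g* was -0.019, and activating signalling and other Fc receptors were at 0.19 and -1.26. Within those with more, 1303 genes were higher, 3 members higher and 1 lower, and these medians were 0.193 and -0.086.

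Leaving out each library in turn gave these ranges. In PS19, *Fcgr2b* ran from -0.12 to 0.37 and *Fcer1g* from -0.00053 to 0.28, and *Fcgr2b* ran from -0.12 to 0.17 for tau minus IkbkbCA. With tau, medians ran from 0.45 to 0.66 (activating), 0.49 to 0.76 (inhibitory), 0.76 to 1.07 (other Fc receptors) and 0.94 to 1.24 (ITAM receptors), and 1 to 2 members were lower. In PS19, 4 to 39 genes were higher and 0 to 15 lower, with medians of -0.032 to 0.057 (activating), -0.041 to 0.079 (inhibitory), 0.12 to 0.22 (phagocytic cup), 0.27 to 0.63 (other Fc receptors) and -0.071 to 0.38 (ITAM receptors). In IkbkbCA, 515 to 766 genes were lower, 1 to 2 members lower and 0 to 2 higher, with medians of 0.080 to 0.21 (activating) and -1.39 to -0.83 (other Fc receptors). In Ikbkb-/-, medians were -0.00085 to 0.16 (inhibitory) and 0.40 to 0.55 (other Fc receptors). For IkbkbCA minus Ikbkb-/-, 46 to 133 genes and 1 to 3 members were lower. For tau minus IkbkbCA 249 to 551 genes were lower, and for tau minus PS19 212 to 450 were lower and 451 to 817 higher.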
